A study of Saccharomyces cerevisiae W303 with 8 samples.

Results

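The small-subunit processome is the nucleolar particle in which the pre-ribosomal RNA of budding yeast (Saccharomyces cerevisiae) is folded, modified and cut to give the small ribosomal subunit. A set of 38 genes that encode its proteins, named by their usual yeast symbols, was matched to the arrays through the systematic gene name of each probe. All 38 were found, with 1 probe each, among 6228 names on the array, and all 38 were among the 6081 genes kept after dim probes were left out. Expression was followed before and during hyperosmotic stress in strains of the W303 background grown in YPD medium at 30 degrees. The first strain, called cdc55 here, has the genotype msn2msn4cdc55 with plasmid pMsn2pMsn2DNES, and it was sampled at 0, 10, 20 and 30 min of 0.4 M NaCl. The second strain, called control here, has the genotype msn2msn4 with the same plasmid and was sampled at the same 4 times. Both strains therefore share the msn2msn4 genotype and the plasmid, and neither is a wild type. CDC55 encodes a regulatory subunit of the protein phosphatase PP2A, and MSN2 and MSN4 encode related stress transcription factors. Each strain and time was measured on 1 array, so there are 8 arrays and no replicate cultures. Sample RNA carried Cy5, and RNA of the untreated control strain carried Cy3 on every array. Every value below is a log2 ratio of Cy5 to Cy3 unless said otherwise, so that 0 means the level of the untreated control strain, 1 means 2-fold above it and negative values lie below it.

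Processome proteins join the nascent transcript in modules. The UTP-A module binds the leading spacer of the pre-rRNA early and has been tied to transcription of the ribosomal DNA, UTP-B follows, and the U3 small nucleolar RNA pairs with the pre-rRNA with the help of the Mpp10 proteins. Helicases then remodel the RNA, and enzymes modify it and cut out the spacers. In growing yeast these genes belong to the ribosome biogenesis regulon, which is known to be repressed together during many stresses and to return when growth resumes.

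Before the results, 3 features of the arrays bear on how they are read. Set against the deposited value table, the scanner file filed under cdc55 at 0 min holds the values of control at 10 min and the reverse, and the files under cdc55 at 20 min and control at 30 min are swapped likewise. These 4 files were exchanged back, after which 98.3% of the complete lines of the value table equalled a probe within 0.01. In that layout the cdc55 arrays fill slide columns 3 and 4 and the control arrays columns 1 and 2, so that strain and place on the slide cannot be told apart. The CDC55 probe read -0.51, -0.21, -0.44 and -0.54 at 0, 10, 20 and 30 min in the cdc55 strain, and 0.15, 0.17, 0.14 and 0.45 in the control strain. It was lower in the cdc55 strain at each time, but it stayed well above background on 8 of 8 arrays. MSN4, which the genotype of both strains lists, was also well above background on 8 of 8 arrays. The sources used here do not say where these probes lie relative to the altered part of either gene.

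All 38 members were well above background in both channels on each of the 8 arrays, and no spot was saturated. From the 2 spots of each member's probe, the SD of a single spot within an array was 0.0704 to 0.138. The gap between the 2 spots was at most 0.69 (cdc55 array at 0 min). Both spots were usable for 35 members on the control array at 0 min, for 32 on the control array at 10 min and for 38 on the others. On the control array at 0 min, where a strain was set against its own RNA, the members lay between -0.23 and 0.26. The median drops given below exceed both of these spreads. Equal amounts of total RNA were labelled, so fewer cells that express a gene and less of its RNA per cell cannot be told apart, nor can a change of the whole RNA pool be seen. All p-values measure how these 8 arrays varied around a model, and none holds a spread between repeated cultures.

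**Figure D1:**
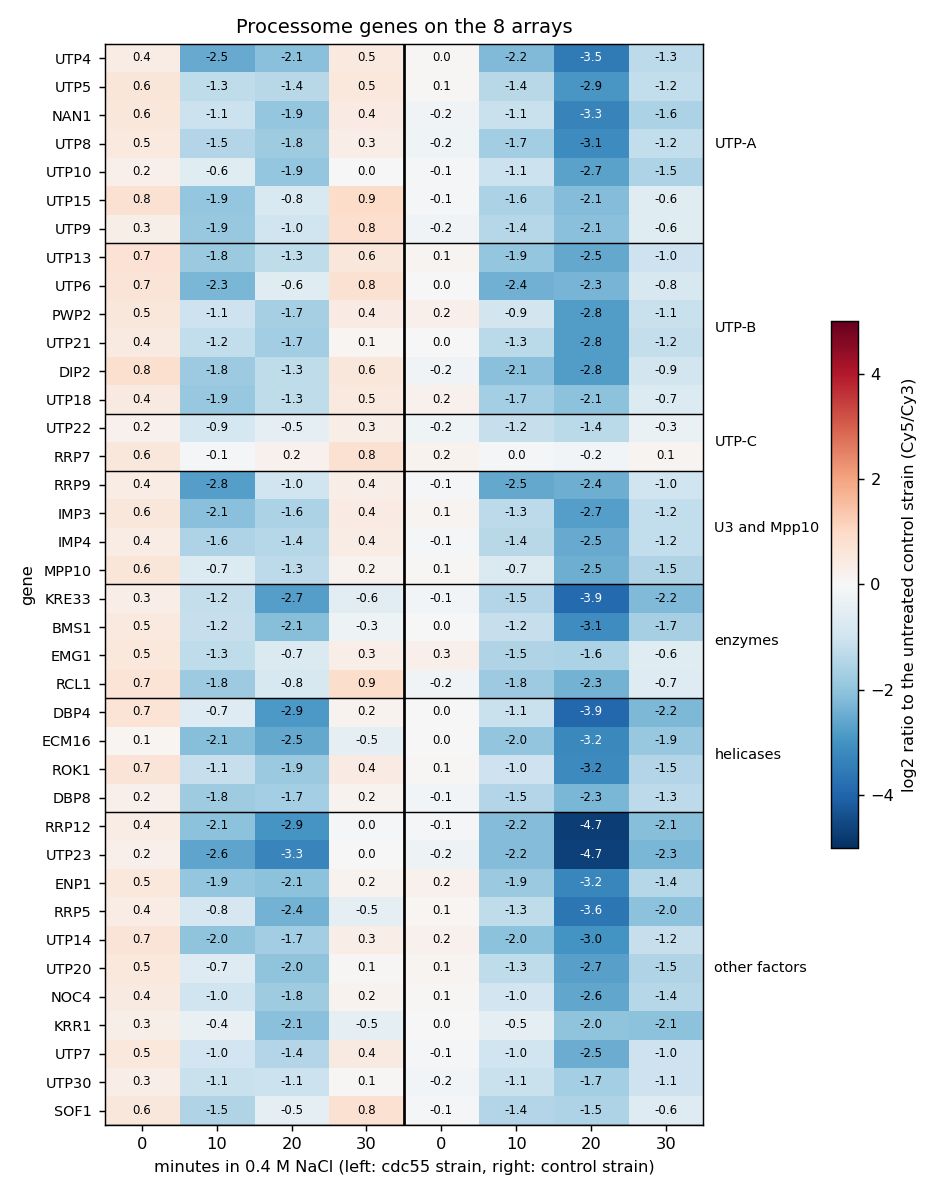
Heat map of log2 Cy5/Cy3 for the 38 processome genes (down the page, in 7 role groups, each ordered by control response) on the 8 arrays (across, minutes in 0.4 M NaCl, cdc55 strain left and control strain right), with each value printed to 1 decimal. Blue is below the untreated control strain and red above it; RRP7 stays pale throughout, and RRP12 and UTP23 reach -4.71 and -4.67 on the control array at 20 min.

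RNA of nearly the whole set was lower with NaCl in both strains, and by 30 min it was back near its start in the cdc55 strain and part of the way there in the control strain. The median over the 38 members was 0.51, -1.38, -1.68 and 0.34 at 0, 10, 20 and 30 min in the cdc55 strain, and 0.01, -1.43, -2.68 and -1.24 in the control strain. Against each strain's own start, the median member at 20 min lay 4.47-fold below it in the cdc55 strain and 6.41-fold below it in the control strain. At 30 min that distance was 1.13-fold in the cdc55 strain and 2.5-fold in the control strain. Across all genes, which loess centres, the array medians lay between -0.01 and 0.02.

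**Figure D2:**
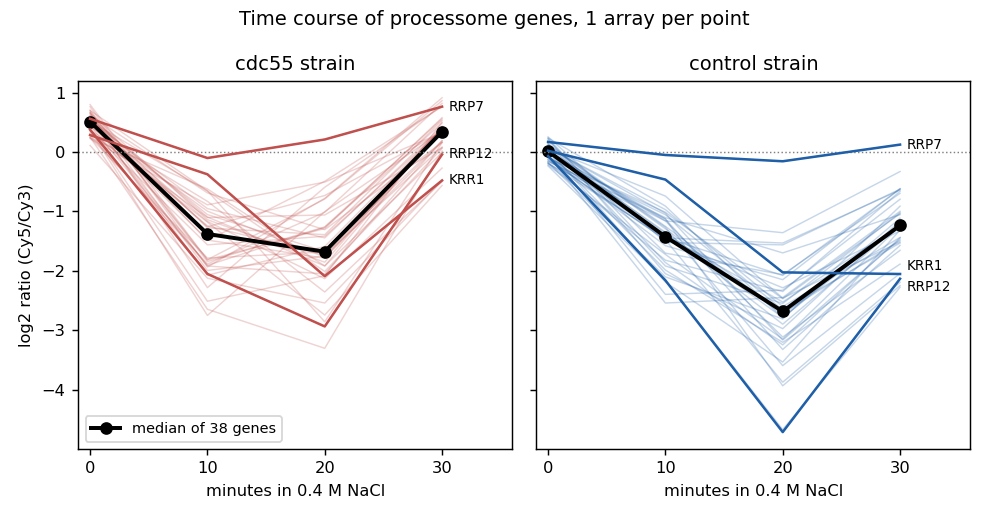
Log2 Cy5/Cy3 (vertical) against minutes in 0.4 M NaCl (horizontal) in the cdc55 strain (left) and the control strain (right); each thin line is 1 of 38 processome genes, the black line is their median, and each point is 1 array. The median is back above 0 at 30 min in the cdc55 strain (0.34) and still at -1.24 in the control strain, while KRR1 shows no return there and RRP7 shows no such drop in either strain.

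In the cdc55 strain, 35 members were more than 2-fold below their own 0 min value at 10 min, 36 at 20 min and 0 at 30 min, where 6.63%, 8.35% and 2.13% of all 6108 probes tested were. In the control strain the counts were 30, 37 and 25 members at 10, 20 and 30 min, where 5.01%, 10.4% and 6.42% of all probes were. All of these shares of the set are far above those of the array, apart from the cdc55 strain at 30 min. Among the times with NaCl the lowest array was at 10 min for 18 members, at 20 min for 20 and at 30 min for 0 in the cdc55 strain, against 33.1%, 26.2% and 40.7% of all probes. The control strain had 2, 35 and 1 members lowest at these times, against 35.7%, 33.4% and 30.9% of all probes. The low point therefore stood at 20 min for most of the set in the control strain and was split between 10 and 20 min in the cdc55 strain.

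For a test, the response of a strain was taken as the mean of its 10, 20 and 30 min arrays minus its 0 min array, in a limma model over all probes with Benjamini-Hochberg adjustment and a threshold of 0.05. In the control strain 22 of 38 members passed as lower, against 5.89% of all probes, and none as higher. Passing depended on the standard error as well as on size: NAN1 (-1.85 ± 0.50, SE) did not pass and UTP8 (-1.82 ± 0.38) did. Whether the role groups described below differ in this response was not tested. The median response was -1.83, the members ran from -2.94 to -0.20 with standard errors of 0.22 to 0.69, and all 38 were below 0, as were 49.7% of all probes. An unadjusted p under 0.05 was reached by 36 members, against 34.5% of all probes. The 22 adjusted p-values lay between 0.01373 (RRP5) and 0.04992 (UTP6), close to the threshold, and the next member, UTP23, had 0.05015. Without the 20 min arrays 0 of 38 members passed (limma adjusted p of 0.1518 to 0.2863 for the 22), and 0.0164% of all probes did as lower. The median was then -1.32, with all 38 below 0 and 21 at an unadjusted p under 0.05, against 1128 of 6108 probes. Without the 10 min arrays 37 members passed, against 14.6% of all probes. With the files as attached 0 members and 0 of 6108 probes passed.

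In the cdc55 strain the same measure had a median of -1.37 and a range of -2.23 to -0.27, again with all 38 below 0, as were 48.8% of all probes. By limma 0 of 38 members passed after adjustment, against 1.31% of all probes lower, while 36 had an unadjusted p under 0.05, against 26.3%. KRE33 came nearest, with a response of -1.85 and a limma adjusted p of 0.05153. This mean takes in the 30 min array, on which the set was almost back at its start. Without the 30 min arrays 31 members passed, against 7.51% of all probes lower, and without the 10 min arrays 31 did, against 8.30%. The difference between the responses of the strains had a median of 0.42 and was above 0 in 36 members, against 52.9% of all probes, and 0 members passed (0.0% of all probes). None had an unadjusted p under 0.05 either, against 1.33% of all probes. The size of this difference depended on the times used: its median was 0.06, with 24 members above 0, without the 30 min arrays. Without the 10 min arrays it was 0.85, with all 38 above 0, and again 0 members passed by limma. An unadjusted p under 0.05 was then reached by 26 members, against 370 of 6108 probes.

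The 7 genes of the UTP-A module responded with a median of -1.82 in the control strain. Of these, 4 passed as lower (UTP4, UTP5, UTP8 and UTP10), against 5.89% of all probes. UTP4 (YDR324C), a WD-repeat protein of the module, had 0.39, -2.51, -2.08 and 0.50 at 0, 10, 20 and 30 min in the cdc55 strain, against 0.04, -2.19, -3.54 and -1.31 in the control strain. Both strains were far down at 10 min, and only the cdc55 strain was above its start at 30 min. The UTP4 response in the control strain was -2.38 ± 0.57 (SE, limma adjusted p = 0.04734). UTP9 (YHR196W), whose product binds within the same module, had the mildest response of the 7, with 0.28, -1.88, -1.01 and 0.82 in the cdc55 strain and -0.19, -1.45, -2.08 and -0.62 in the control strain. Its control response of -1.19 ± 0.50 (SE) did not pass (limma adjusted p = 0.1536), and at 10 min the cdc55 array was the lower of the pair. UTP15 and NAN1, the remaining members of UTP-A, had control responses of -1.36 and -1.85 that did not pass.

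All 6 genes of UTP-B passed as lower in the control strain, against 5.89% of all probes, with responses packed between -1.98 and -1.68. UTP-B is built largely from WD-repeat proteins and contacts the spacer and U3. UTP13 (YLR222C) had 0.70, -1.84, -1.26 and 0.56 in the cdc55 strain and 0.15, -1.92, -2.55 and -1.02 in the control strain. UTP18 (YJL069C), which is also known to recruit the RNA exosome cofactor Mtr4, had 0.44, -1.91, -1.27 and 0.49 in the cdc55 strain and 0.20, -1.70, -2.06 and -0.70 in the control strain. Both genes were lowest at 10 min in the cdc55 strain and at 20 min in the control strain. UTP6 (YDR449C) was also lowest at 10 min in the cdc55 strain, with 0.66, -2.28, -0.59 and 0.77. In the control strain it was nearly level from 10 to 20 min, with 0.01, -2.40, -2.33 and -0.79. The UTP6 levels of the strains lay close together at 10 min, and by 20 min they stood 1.73 apart. PWP2, DIP2 and UTP21 completed the module, with control responses of -1.84, -1.76 and -1.81.

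UTP-C was the exception among the 38 genes. Its members RRP7 and UTP22, which assemble with casein kinase 2, had the weakest responses of the 38 in both strains, and neither passed. RRP7 (YCL031C) had 0.56, -0.10, 0.21 and 0.76 at 0, 10, 20 and 30 min in the cdc55 strain, against 0.17, -0.05, -0.16 and 0.12 in the control strain. These arrays stay within a 2-fold band in each strain, and the control response of -0.20 ± 0.23 (SE) had a limma adjusted p of 0.5895. UTP22 (YGR090W), which is also found with the ribosomal protein gene activator Ifh1 in a complex called CURI, had 0.23, -0.89, -0.51 and 0.33 in the cdc55 strain and -0.20, -1.16, -1.36 and -0.33 in the control strain. It dipped and returned like the rest of the set but less deeply, with a control response of -0.75 ± 0.22 (SE, limma adjusted p = 0.06889).

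The 4 genes for the U3 snoRNP and Mpp10 proteins had a median response of -1.77 in the control strain. Only 1 passed as lower, against 5.89% of all probes. That was RRP9 (YPR137W), the protein specific to the U3 particle, with 0.37, -2.75, -1.004 and 0.35 in the cdc55 strain, against -0.05, -2.54, -2.45 and -0.998 in the control strain. RRP9 dropped early: it was lowest at 10 min in the cdc55 strain and nearly level from 10 to 20 min in the control strain. Its control response was -1.95 ± 0.47 (SE, limma adjusted p = 0.04847). MPP10 (YJR002W), the scaffold of its complex, was lowest at 20 min instead, with 0.62, -0.69, -1.31 and 0.16 in the cdc55 strain and 0.05, -0.74, -2.46 and -1.51 in the control strain. Its response of -1.63 ± 0.43 (SE) fell short of the threshold (limma adjusted p = 0.0561). IMP3 and IMP4, which help U3 pair with the pre-rRNA, had control responses of -1.88 and -1.65 that did not pass either.

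Of the 4 enzymes, 3 passed as lower in the control strain, against 5.89% of all probes. KRE33 (YNL132W), an acetyltransferase that acts on the small-subunit RNA, had 0.35, -1.18, -2.74 and -0.56 in the cdc55 strain and -0.13, -1.48, -3.87 and -2.19 in the control strain, where its response was -2.38 ± 0.36 (SE, limma adjusted p = 0.01841). It reached 8.54-fold below its start at 20 min in the cdc55 strain and 13.4-fold below in the control strain. RCL1 (YOL010W), a cyclase-like protein tied to cleavage of the pre-rRNA, had 0.68, -1.81, -0.79 and 0.86 in the cdc55 strain and -0.18, -1.82, -2.35 and -0.66 in the control strain. The strains matched at 10 min and were 1.56 apart at 20 min, and the control response of -1.43 ± 0.45 (SE) did not pass (limma adjusted p = 0.08238). BMS1, the GTPase that binds Rcl1, and EMG1, a methyltransferase, fell by 1.99 and 1.49 on the log2 scale. At 30 min BMS1 stood at -0.27 in the cdc55 strain and -1.65 in the control strain, so its cdc55 array too lay below the untreated control strain, unlike that of RCL1.

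The 4 helicase genes had a median response of -2.17 in the control strain. Of these, 2 passed as lower (DBP4 and ECM16), against 5.89% of all probes. DBP4 (YJL033W), a DEAD-box helicase, had 0.70, -0.65, -2.86 and 0.16 in the cdc55 strain and 0.00, -1.13, -3.94 and -2.25 in the control strain. Its change from 10 to 20 min was the most negative of the set in both strains, and its control response was -2.43 ± 0.50 (SE, limma adjusted p = 0.03395). DBP8 (YHR169W) had 0.25, -1.78, -1.68 and 0.19 in the cdc55 strain and -0.13, -1.47, -2.29 and -1.33 in the control strain. That gave the mildest helicase response, -1.57 ± 0.46 (SE), which did not pass (limma adjusted p = 0.07207). ECM16, also called Dhr1, the helicase that takes U3 off the pre-rRNA, responded with -2.38, and ROK1, which acts on the snR30 RNA, with -1.96 (limma adjusted p = 0.02294 and 0.05664).

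Among the 11 other factors 6 passed as lower in the control strain, against 5.89% of all probes. These were RRP12, ENP1, RRP5, UTP14, UTP20 and NOC4. RRP12 (YPL012W), a repeat protein that takes part in export of ribosomal subunits, had 0.38, -2.05, -2.94 and -0.04 in the cdc55 strain and -0.07, -2.16, -4.71 and -2.13 in the control strain. Its control response, -2.94 ± 0.53 (SE, limma adjusted p = 0.02649), was the most negative of the 38, and at 20 min it stood 9.93-fold below its start in the cdc55 strain and 25.1-fold below in the control strain. UTP23 (YOR004W), which helps release snR30, had 0.25, -2.65, -3.30 and 0.02 in the cdc55 strain and -0.23, -2.16, -4.67 and -2.28 in the control strain. Its drop was as deep, but with a standard error of 0.69 on a response of -2.80 it did not pass. That standard error holds the change of its strain difference over the times with NaCl, which was the largest of the set (2.78, described below). RRP5, an S1-domain protein used in assembly of both subunits, fell by 2.40 on the log2 scale (SE 0.32), with the smallest adjusted p of the set given above.

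The other end of this group was held by SOF1, UTP30 and KRR1. SOF1 (YLL011W), a WD-repeat protein, had 0.58, -1.49, -0.49 and 0.77 in the cdc55 strain and -0.08, -1.45, -1.53 and -0.64 in the control strain. UTP30 (YKR060W) had 0.32, -1.10, -1.06 and 0.07 in the cdc55 strain and -0.15, -1.10, -1.70 and -1.05 in the control strain. Both genes were level between the strains at 10 min and higher in the cdc55 strain afterwards, and neither control response passed (limma adjusted p = 0.1023 and 0.0632). KRR1 (YCL059C), a KH-domain protein, behaved differently, with 0.29, -0.37, -2.09 and -0.48 in the cdc55 strain and 0.02, -0.46, -2.03 and -2.05 in the control strain. It was near its start at 10 min, low at 20 min in both strains, and the sole member of the control strain with no return at 30 min. UTP7, a WD-repeat protein, did not pass either (limma adjusted p = 0.05996).

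The strains already differed in the direction of higher processome RNA in the cdc55 strain before NaCl was added. At 0 min the members lay between 0.11 and 0.80 in the cdc55 strain, against -0.23 to 0.26 in the control strain, and all 38 were higher in the cdc55 strain, as were 50.6% of all probes. On the cdc55 array 33 members exceeded the highest member of the control array, a level passed by 20.5% of all probes. The median difference was 0.45, with DIP2 (0.98), RCL1 (0.86) and UTP15 (0.85) at the top and ECM16 (0.09) at the bottom, and 0 members differed by more than 2-fold, against 0.524% of all probes. By limma 0 members passed (0.0% of all probes higher), the smallest adjusted p being 0.7774 (DIP2), and 0 had an unadjusted p under 0.05, against 6.73% of all probes. With 1 array per strain at 0 min, the model takes its error for this contrast from the later times (standard errors of 0.27 to 0.85). With the files as attached, the median difference was -1.37, since the array then taken for the cdc55 strain at 0 min is a stressed one.

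That lead was gone at 10 min. The cdc55 strain was above the control strain in 21 of 38 members (49.0% of all probes) with a median difference of 0.02, and 0 members were more than 2-fold higher (0.442%). Relative to its own start, the cdc55 strain was lower than the control strain in 34 of 38 members, against 49.3% of all probes, with medians of -1.92 and -1.37. At 20 min the order had turned: 37 members were higher in the cdc55 strain (53.9% of all probes), by a median of 1.13, and 26 were more than 2-fold higher (2.14%). At 30 min all 38 were higher (45.8% of all probes), by a median of 1.54, and 35 were more than 2-fold higher (4.86%). The remaining 3 at 30 min were EMG1 (0.96), UTP22 (0.65) and RRP7 (0.64).

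**Figure D3:**
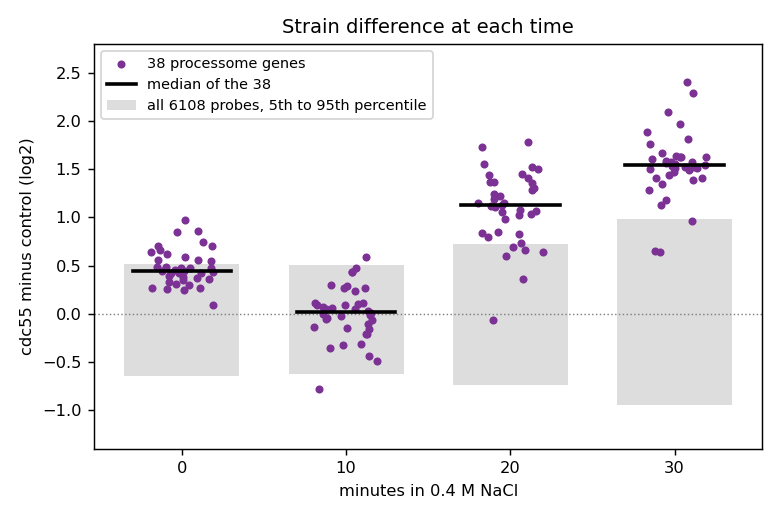
Difference in log2 Cy5/Cy3, cdc55 minus control (vertical), at 0, 10, 20 and 30 min of 0.4 M NaCl (horizontal); points are the 38 processome genes with 1 array per strain and time, black bars their medians (0.45, 0.02, 1.13 and 1.54), and grey boxes the 5th to 95th percentile of all 6108 probes. Points are spread sideways for legibility, and most members lie above the grey box at 20 and 30 min but inside it at 10 min.

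Averaged over 10, 20 and 30 min, the strain difference ran from 0.32 to 1.33 with a median of 0.88 and was positive for all 38 members, against 51.5% of all probes. RRP12 (1.33 ± 0.38, SE), DBP4 (1.32 ± 0.35) and UTP6 (1.14 ± 0.32) had the highest values, and RRP7 (0.32 ± 0.16), KRR1 (0.53 ± 0.33) and UTP30 (0.59 ± 0.22) the lowest. By limma 0 of 38 members passed, against 0.36% of all probes higher, with adjusted p-values from 0.0679 (RRP5) upward. An unadjusted p under 0.05 was reached by 28 members, against 24.6% of all probes. A constant difference describes these data poorly, because the median difference was near 0 at 10 min and above 1 at 20 and 30 min. Without the 10 min arrays 36 members passed, against 7.84% of all probes higher. The error then rested on how the difference varied between 20 and 30 min.

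A model with a straight-line change of the strain difference from 10 to 30 min was therefore used. It was chosen because an earlier look at these data had shown the difference to grow, and it gives no independent evidence of that growth. The rise is given as the change of cdc55 minus control per 20 min. It was positive for all 38 members, with a median of 1.51 and a range of 0.39 (UTP22) to 2.78 (UTP23), and 18 members passed, against 2.08% of all probes higher. An unadjusted p under 0.05 was reached by 37 members, against 16.4% of all probes. From 10 to 20 and again from 20 to 30 min the difference grew in 32 members, against 19.9% of all probes. With the files as attached 0 members and 0 of 6108 probes passed by limma, with a median rise of 3.95 and all 38 positive. All 38 then had an unadjusted p under 0.05, against 1195 of 6108 probes.

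The counts by role that follow stand against 2.08% of all probes passing as higher for the rise. All 4 helicases passed (ROK1 2.00, DBP4 1.93, DBP8 1.83 and ECM16 1.55). In UTP-A 5 of 7 genes did (UTP4 2.14, NAN1 1.94, UTP15 1.89, UTP9 1.88 and UTP5 1.67). In the U3 and Mpp10 group 3 of 4 passed, with IMP3 at 2.40, IMP4 at 1.78 and MPP10 at 1.62. Among the other factors 5 of 11 passed, led by UTP23 (2.78 ± 0.34, SE, limma adjusted p = 0.01496) and RRP12 (1.98 ± 0.39, limma adjusted p = 0.03569), followed by ENP1 (1.69), NOC4 (1.63) and UTP7 (1.41). In UTP-B only PWP2 passed (1.65), and among the enzymes and in UTP-C no member did, although the medians of UTP-B and the enzymes were 1.42 and 1.36. Whether the roles differ in this rise was not tested. The 22 members that passed as lower in the control strain and the 18 that passed here had 8 in common. This overlap was not tested, and no share over all probes was taken for it. A larger rise also enlarges the standard error of the control response, so the 2 calls are not independent.

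Most of this growth came between 10 and 20 min, when the median member changed by -0.12 in the cdc55 strain and by -1.41 in the control strain. From 20 to 30 min both strains turned upward, with median changes of 1.87 in the cdc55 strain and 1.52 in the control strain. This step exceeded 2-fold for 36 members in the cdc55 strain, as for 5.58% of all probes, and for 31 in the control strain, as for 3.49%. In 5 members it was larger in the control strain. The step was 3.32 for UTP23, 3.02 for DBP4 and 2.89 for RRP12 in the cdc55 strain, against 2.40, 1.69 and 2.58 in the control strain. Of the members that had been more than 2-fold below their start, 37 in each strain, the median regained 92.7% of its drop on the log2 scale by 30 min in the cdc55 strain (67.9% to 125.0%). In the control strain the median regained 55.3% (0.0% to 88.8%). At 30 min 31 members were above the untreated control strain on the cdc55 array (51.2% of all probes), and 1, RRP7, on the control array (51.0%). Above their own strain's 0 min value were 10 members in the cdc55 strain (48.0% of all probes) and 0 in the control strain (49.9%). UTP9 exceeded its start by the widest margin, 0.54, in the cdc55 strain.

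Within the set the members differed in when they went down, and this timing was correlated between the strains without being the same. The change from 10 to 20 min ran from -2.21 (DBP4) to 1.75 (RRP9) in the cdc55 strain, and from -2.81 (DBP4) to 0.09 (RRP9) in the control strain. Late members went on down after 10 min: the change was -1.72 and -1.56 for KRR1, -1.56 and -2.40 for KRE33, and -1.53 and -2.33 for RRP5, with the cdc55 strain first in each pair. Early members had finished by 10 min, and from 10 to 20 min UTP6 changed by 1.69 in the cdc55 strain and 0.07 in the control strain, SOF1 by 1.00 and -0.09, and EMG1 by 0.53 and -0.04. Across the 38 genes this change had a Pearson correlation of 0.855 between the strains, against 0.612 across all probes. For the change from 20 to 30 min it was 0.752, against 0.706. These correlations are across genes, which are not independent replicates, and the arrays share the reference RNA and the slide. In both strains the 20 min array lies on slide row 1 and the 10 and 30 min arrays on row 2. Each of these changes over time therefore cannot be told apart from a difference between slide rows.

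**Figure D4:**
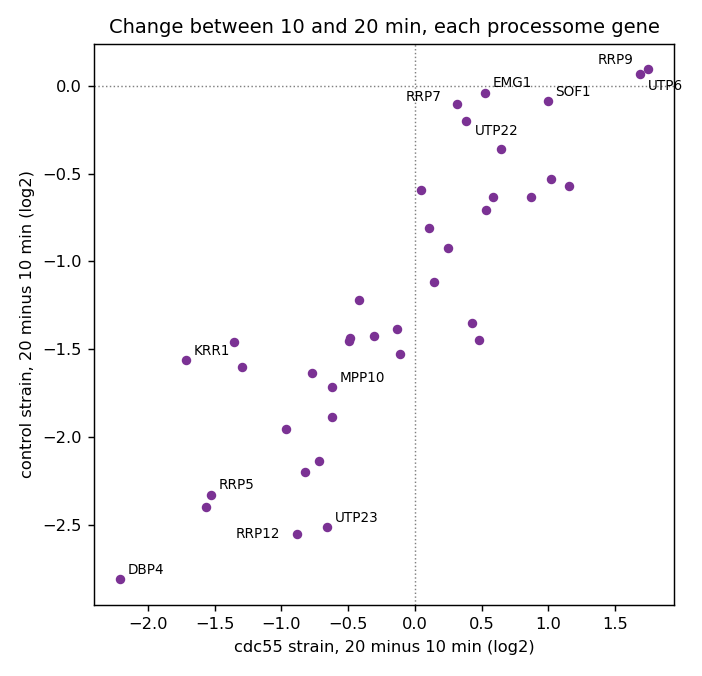
Change in log2 Cy5/Cy3 from 10 to 20 min of 0.4 M NaCl for each of the 38 processome genes, in the cdc55 strain (horizontal) and in the control strain (vertical), from 1 array per strain and time; dotted lines mark no change. DBP4 at -2.21 and -2.81 is at one end and RRP9 at 1.75 and 0.09 at the other, and every point but 2 lies below 0 on the vertical axis.

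Over the 8 arrays most members traced the same curve. Each member was set against the mean of the other 37, and 21 of 38 had a Pearson r above 0.95. KRR1 (0.732) and RRP7 (0.834) followed the set least, then RRP9 (0.851) and UTP6 (0.855). The shared drop and return make such values high, and 186 of 6043 other genes also had an r above 0.95 with the mean of the members. The 10 non-members most like it were TRM2, SGD1, DBP10, RSA4, NOC2, RRP36, TMA23, IPI3, MSB1 and ARX1, with r from 0.9939 to 0.9974 over 8 arrays. Of these, 5 were on the other assembly lists described next.

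The rest of the assembly pathway was set beside the 38 genes through lists drawn from general knowledge. Among all probes 5.89% passed as lower and 7.66% as higher in the control response, and 2.08% as higher for the rise. A list of 31 further processome genes had a median control response of -1.68, with 14 lower and 0 higher, and a median rise of 1.52, with 15 passing. Its most negative members were the helicase gene DHR2 (-3.02, not passing), FAF1 (-2.58) and MRD1 (-2.51). FCF1 (-0.53) and RRP3 (-0.70) were its least negative members and did not pass. Weak responses such as that of UTP22 (-0.75) were therefore not confined to UTP-C. A list of 44 genes for assembly of the large subunit had a median control response of -2.04, with 27 lower, and a median rise of 1.73, with 25 passing. Its leading members were SPB1 (-2.95), ARX1 (-2.69) and ALB1 (-2.58). Processome and large-subunit assembly genes thus gave medians and counts of the same order, and no test set them apart.

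**Figure D5:**
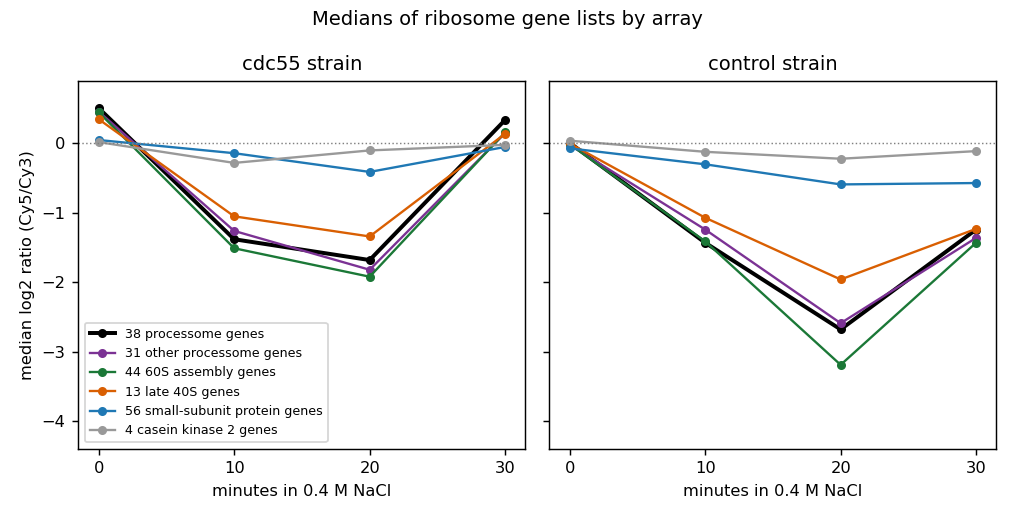
Median log2 Cy5/Cy3 (vertical) of 6 gene lists against minutes in 0.4 M NaCl (horizontal), 1 array per point, in the cdc55 strain (left) and the control strain (right). The processome genes and the other assembly lists dip and return together, while genes for small-subunit ribosomal proteins and casein kinase 2 stay nearer to 0.

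Lists of genes that act later or with the processome had medians nearer to 0, with no test between lists. The 13 genes for late steps of small-subunit maturation had a median control response of -1.25, with 4 lower, against 5.89% of all probes. For the rise 3 passed, against 2.08% of all probes, LTV1 among them (2.51). HRR25, a casein kinase 1 that acts on the pre-40S particle, had a control response of 0.28. The 56 genes for the proteins of the small subunit itself had a median control response of -0.40, with 3 lower. For the rise 0 passed and 8 had an unadjusted p under 0.05, against 2.08% and 16.4% of all probes. These counts are near the shares of the array, but the directions were not. Of the 56 control responses 53 were below 0, against 49.7% of all probes. At 30 min 54 of the 56 were higher in the cdc55 strain, against 45.8%. For the strain difference with NaCl 24 had an unadjusted limma p under 0.05, against 24.6%, and 0 passed as higher. For the 4 casein kinase 2 genes the median was -0.12, and 0 passed (1 with an unadjusted p under 0.05, against 34.5% of all probes). CKB1, a regulatory subunit, read between -1.58 and -0.92 on the cdc55 arrays and between -0.37 and 0.07 on the control arrays. Its strain difference passed neither with NaCl nor before it (limma adjusted p = 0.05869 and 0.4862).

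Among 12 regulators of these genes, TOD6 alone passed as lower in the control response, against 5.89% of all probes. Of the 12, 8 were below 0, against 49.7% of all probes. An unadjusted p under 0.05 was reached by 6, against 34.5%. TOD6, a repressor of ribosome biogenesis genes that binds the PAC element, read 1.32, -2.41, -1.97 and 1.22 in the cdc55 strain, against 0.23, -2.32, -3.77 and -1.05 in the control strain. RNA of the repressor was thus low when RNA of the processome genes was low, with a control response of -2.61 ± 0.61 (SE, limma adjusted p = 0.04601) and a rise of 2.35 (limma adjusted p = 0.02805). DOT6, its paralog, had a control response of -0.79 that did not pass (limma adjusted p = 0.1433). CRF1, a corepressor of ribosomal protein genes, passed as higher in both strains. Its response was 0.998 in the cdc55 strain (limma adjusted p = 0.0398), where 2.88% of all probes passed as higher. In the control strain its response was 1.26 (limma adjusted p = 0.01476), where 7.66% of all probes passed as higher. The control responses of IFH1 (-1.12), HMO1 (-0.48), SCH9 (-0.46), FHL1 (-0.43), RAP1 (-0.34), RPD3 (-0.03), TOR1 (0.18), STB3 (0.25) and SFP1 (0.31) did not pass.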

How the data were processed

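Total RNA of 8 samples was measured on 2-colour Agilent arrays of 1 slide, with Cy5 for the sample and Cy3 for untreated control strain, per the labels. The deposited scanner files hold median spot and background intensity per channel and a log10 ratio made by Agilent Feature Extraction 10.5.1.1, per the file headers. Non-uniform, saturated and well-above-background spots carry deposited flags of 0 or 1. The deposited value table holds log2 ratios whose scale and direction were unstated and were settled against the scanner values as Cy5 over Cy3, uncentred. Its line names matched none of the probes they equalled, so it was named through the values. The 3 files without a settings block are, after the exchange, the control strain at 0 and 10 min and the cdc55 strain at 0 min (software version not given in the sources used here). Arrays at 0 and 20 min lie on slide row 1 and the 10 and 30 min arrays on row 2. Counts of non-uniform Cy5 spots were 4 to 28 per array, except 283 (control, 0 min) and 267 (control, 10 min).

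Python 3.11.15 (scipy 1.17.1, pandas 2.3.3, numpy 2.4.6, matplotlib 3.10.9) read the files and drew the figures. In R 4.3.3 with limma 3.58.1 the background was corrected by normexp with offset 50, each array was normalised by loess, non-uniform spots were left out and the 2 spots of a probe averaged. From 6256 probes, 136 whose Cy5 signal cleared background on fewer than 3 arrays and 12 lacking a usable spot somewhere were removed, which left 6108. The linear model held 4 time terms and separate strain terms before and with NaCl (6 coefficients, 2 residual and 3.93 prior degrees of freedom). The rise model added a linear strain by time term (7 coefficients, 1 residual and 8.51 prior degrees of freedom). Tests were two-sided, with Benjamini-Hochberg adjustment over all probes, and the fit was tested on simulated data. A share of all probes is over the 6108.

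Members and lists were chosen with earlier results of these data known. Values per array are given for the most and least negative control response in each of 7 role groups, the 3 highest and 3 lowest strain differences with NaCl, and the members with the highest and lowest Cy5 signal. From other lists at most the 3 most negative and 3 most positive control responses are named, with every regulator and the 10 most alike genes. Names came from the array and from RefSeq symbols. Alternatives covered file assignment, normalisation, source of the ratio, dim probes, variance trend, each time left out and a constant strain term.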

Additional observations from a re-analysis of the deposited data

Results flagged for a closer look

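The change of cdc55 minus control from 10 to 30 min passed the test of the difference itself (limma, strain by time term, adjusted p under 0.05) in 18 processome genes, each time with the cdc55 strain gaining on the control strain. Per 20 min the gain was 2.78 for UTP23, 2.40 for IMP3, 2.14 for UTP4, 2.00 for ROK1, 1.98 for RRP12, 1.94 for NAN1, 1.93 for DBP4, 1.89 for UTP15 and 1.88 for UTP9. It was 1.83 for DBP8, 1.78 for IMP4, 1.69 for ENP1, 1.67 for UTP5, 1.65 for PWP2, 1.63 for NOC4, 1.62 for MPP10, 1.55 for ECM16 and 1.41 for UTP7. Of all probes 2.08% passed as higher. The model leaves 1 residual degree of freedom. It was chosen after the growth had been seen in these data, so it gives no independent evidence of that growth. The rise was refitted under 7 alternatives. Of the 18, 13 passed in each of these other than the files as attached, in which 0 did. In those other alternatives 1.27% to 5.63% of all probes tested passed as higher. The rise was not refitted with a time left out or with a constant strain term.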

How the results depend on the processing

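Counts of members past the threshold moved between settings, and the share of all tested probes passing in the same direction often moved with them, so that share is given after each count. With the files as attached, 0 members passed as lower in the control strain and 0 passed for the rise, as did 0 probes. The median cdc55 response was then 0.56 and the median strain difference before NaCl -1.37. Both were of opposite sign, since stressed and unstressed arrays are then mixed. Median centring in place of loess gave 35 members lower in the control strain (10.8% of probes), 18 lower in the cdc55 strain (4.47%), 16 higher for the strain difference with NaCl (2.39%) and 31 for the rise (3.88%). With the Agilent software ratio, 1 was lower in the cdc55 strain (1.31%) and 32 passed for the rise (5.11%). The deposited values gave 1 lower in the cdc55 strain (1.60%) and 33 for the rise (5.63%). Both channels well above background on all arrays gave 2 lower in the cdc55 strain (1.55%) and 29 for the rise (4.09%). An intensity trend gave 2 lower in the cdc55 strain (1.57%). Without the 10 min arrays 37 were lower in the control strain (14.6%), 31 lower in the cdc55 strain (8.30%) and 36 higher for the strain difference with NaCl (7.84%). Without the 20 min arrays 0 were lower in the control strain (0.0164%), and without the 30 min arrays 31 were lower in the cdc55 strain (7.51%). A constant strain term gave 37 lower in the control strain, 37 lower in the cdc55 strain (19.3% each), 9 higher with NaCl and 9 higher before it (4.45% each). Against the reference without the 0 min arrays, chosen after seeing the data, 37 were lower in the control strain (28.4%). The cause of each shift was not tested. No dim-probe filter left 16 lower in the control strain (4.96%) and 13 for the rise (1.27%). The counts of members for the difference in response were 0 in each alternative run. Signal over background did not limit the 38 members, whereas 1 array per strain and time did limit what could be tested. The time terms of the model already compare the strains within each time. No paired analysis was possible because beyond that the labels give no replicate numbers to pair by. Motif counts in promoters were planned and not run, as promoter sequences were not used here.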
